A study of Homo sapiens with 9 samples.

Results

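Genes of glycolysis and of the response to low oxygen were followed across 6 human cell lines of the B lineage. The set listed 34 genes, chosen by name: glucose and lactate transporters, glycolytic enzymes and their regulators, a subunit of hypoxia-inducible factor with a prolyl hydroxylase that controls it, and hypoxia targets outside metabolism. Each gene was read at the probe set that carried its symbol alone and had the highest mean over the 6 lines. This gave 33 genes of the 11963 that had such a probe set. SLC16A1, a lactate transporter, had none with its symbol alone and was left out.

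The study set plasma cell myeloma (PCM) lines against B-cell lymphoma lines. The PCM lines were L363, derived from a plasma cell leukaemia, and the myeloma lines U266 and LP1, with 1 array each. The B-cell lines were Namalwa, a Burkitt lymphoma line, and SU-DHL4 and SU-DHL6, both from diffuse large B-cell lymphoma, with 2 arrays each. Every line was grown in RPMI medium with fetal bovine serum at the same temperature and carbon dioxide level, and the labels name no hypoxic treatment. The titles of the 3 PCM samples name no treatment, while those of the 6 B-cell arrays say untreated. Total RNA was hybridised to Affymetrix human genome arrays, 9 in all, and values are on the log2 scale of RMA, on which a difference of 1 is a 2-fold change. A value cannot be set against that of another gene, since probe sets differ in brightness. Arrays of bulk RNA also cannot tell more RNA per cell from more cells that carry it.

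Glycolysis splits glucose into pyruvate, and lactate dehydrogenase turns pyruvate into lactate where oxygen is short. Hypoxia-inducible factor (HIF) holds an alpha subunit such as HIF1A that prolyl hydroxylases such as EGLN1 mark for destruction while oxygen is present. In low oxygen the alpha subunit persists, pairs with ARNT and binds a short motif beside glycolytic genes and targets such as ADM, VEGFA and BNIP3. Much of this control acts on the HIF1A protein, which these arrays do not measure. Bone marrow, where myeloma grows, is a tissue of low oxygen.

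The core of the HIF-binding motif was searched as ACGTG or GCGTG on both strands, that is also as CACGT and CACGC, in RefSeq promoter windows of build GRCh38.p14 from 250 bases before to 50 bases after a gene's start. The windows below belong to ADM, which passed the PCM test, and to BNIP3, ALDOC, ENO2, P4HA1 and DDIT4. These last were more than 2-fold higher on the second SU-DHL6 array than on the first. BNIP3L was so too but had no window. BNIP3 also had lower values in every PCM line than the B-cell line means, as some genes not shown here did, without passing the test. Capitals mark the matches, and a CACGTG run holds an ACGTG and a CACGT match that overlap.
ADM: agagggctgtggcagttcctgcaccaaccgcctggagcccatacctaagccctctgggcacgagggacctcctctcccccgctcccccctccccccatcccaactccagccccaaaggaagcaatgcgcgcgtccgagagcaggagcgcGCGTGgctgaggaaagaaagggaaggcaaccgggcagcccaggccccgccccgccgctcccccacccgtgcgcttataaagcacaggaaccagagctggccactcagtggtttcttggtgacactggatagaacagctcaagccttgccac
BNIP3: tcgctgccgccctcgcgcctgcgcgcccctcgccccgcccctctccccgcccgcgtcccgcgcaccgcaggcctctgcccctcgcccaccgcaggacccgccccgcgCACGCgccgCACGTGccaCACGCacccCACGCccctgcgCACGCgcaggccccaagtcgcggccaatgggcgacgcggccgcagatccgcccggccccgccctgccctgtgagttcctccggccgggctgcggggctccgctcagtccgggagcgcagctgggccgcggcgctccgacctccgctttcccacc
ALDOC: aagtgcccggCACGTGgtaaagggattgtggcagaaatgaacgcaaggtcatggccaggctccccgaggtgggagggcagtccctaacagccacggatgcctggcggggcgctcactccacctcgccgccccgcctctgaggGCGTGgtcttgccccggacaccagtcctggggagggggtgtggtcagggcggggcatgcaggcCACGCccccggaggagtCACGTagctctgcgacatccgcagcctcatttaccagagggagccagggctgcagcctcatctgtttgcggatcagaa
ENO2: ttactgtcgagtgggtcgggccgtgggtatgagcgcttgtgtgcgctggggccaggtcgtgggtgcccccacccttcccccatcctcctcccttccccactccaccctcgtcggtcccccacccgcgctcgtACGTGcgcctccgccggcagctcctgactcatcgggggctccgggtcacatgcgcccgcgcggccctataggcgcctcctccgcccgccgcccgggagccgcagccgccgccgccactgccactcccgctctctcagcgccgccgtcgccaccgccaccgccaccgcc
P4HA1: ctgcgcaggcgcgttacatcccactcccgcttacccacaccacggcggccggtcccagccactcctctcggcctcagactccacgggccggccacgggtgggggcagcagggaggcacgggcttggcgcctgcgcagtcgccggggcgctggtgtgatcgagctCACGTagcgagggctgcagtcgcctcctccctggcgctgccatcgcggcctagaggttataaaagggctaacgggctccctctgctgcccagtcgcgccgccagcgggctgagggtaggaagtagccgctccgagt
DDIT4: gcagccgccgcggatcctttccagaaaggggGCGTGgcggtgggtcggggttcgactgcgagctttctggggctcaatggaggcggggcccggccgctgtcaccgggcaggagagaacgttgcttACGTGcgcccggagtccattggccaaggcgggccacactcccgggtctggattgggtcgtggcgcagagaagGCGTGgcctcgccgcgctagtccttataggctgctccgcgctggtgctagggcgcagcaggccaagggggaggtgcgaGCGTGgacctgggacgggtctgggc
The ADM window lies at chr11:10304823-10305122 on the plus strand and held 1 match. BNIP3, at chr10:131981874-131982173 on the minus strand, held 6 matches, and ALDOC, at chr17:28576846-28577145 on the minus strand, held 5. The windows of ENO2 (chr12:6914330-6914629, plus strand) and P4HA1 (chr10:73096817-73097116, minus strand) held 1 match each. DDIT4 (chr10:72273674-72273973, plus strand) held 4. Of the 33 genes, 29 had a window in the RefSeq table, and 27 of these (93.1%) had at least 1 match, against 14318 of all 27305 genes (52.4%). Some genes have several windows: over single windows the shares were 67.3% for the set and 48.4% for all genes. A match describes these letters and is not a binding site.

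Array medians lay between 6.95 and 7.04. The mean level of B-cell markers was 6.88 to 7.36 on the PCM arrays and 10.57 to 11.14 on the B-cell arrays, while that of plasma cell markers was 10.48 to 10.83 on the PCM arrays and 6.83 to 7.98 on the B-cell arrays. T and NK cell markers had mean levels of 6.63 to 6.96 on the PCM arrays and 6.63 to 6.74 on the B-cell arrays, and myeloid markers 5.27 to 5.34 on the PCM arrays and 5.22 to 5.31 on the B-cell arrays, with 0 of 6 markers of each list beyond the other class. Erythroid markers (7.25 to 7.35 on the PCM arrays and 6.94 to 7.17 on the B-cell arrays) had 2 of 3 beyond, and epithelial, fibroblast and endothelial markers (6.29 to 6.32 on the PCM arrays and 5.998 to 6.18 on the B-cell arrays) 1 of 7. The second SU-DHL6 array stood apart from the other 8. Its GAPDH control probe sets read 0.44 higher at the 3′ than at the 5′ end, against -0.09 to 0.07 on the other 8 arrays, and its ribosomal RNA control probe set read 6.49 against 5.24 to 5.51. L363 and U266 were close: over all probe sets their differences had an SD of 0.32. The SD of the duplicate pairs was 0.22 in Namalwa, 0.24 in SU-DHL4 and 0.35 in SU-DHL6. So L363 and U266 differed more than 2 of the 3 pairs, and less only than the pair that holds the array set apart. The labels give them as separate lines and they were counted so, but these values cannot tell whether they are independent samples. If they are not, the PCM class holds 2 independent lines and p-values from n = 3 lines are too small. The Namalwa arrays came from an earlier study of the same group, so line and study cannot be told apart for them. Nothing in the labels says that duplicates were separate cultures, so p-values within lines measure the spread between arrays, which may be technical.

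ADM was far higher in the PCM lines than in the B-cell lines, and none of the other 32 genes passed the test in either direction. ADM encodes adrenomedullin, a secreted peptide that widens blood vessels and that hypoxia induces in many cells. Its log2 values were 11.26 in L363, 11.53 in U266 and 9.95 in LP1, against line means of 6.01 in Namalwa, 6.002 in SU-DHL4 and 6.24 in SU-DHL6. The PCM mean was 10.91 ± 0.84 and the B-cell mean 6.08 ± 0.13 (SD, n = 3 lines each). All 3 PCM lines lay above every B-cell array, of which the highest read 6.29. The difference was 4.83 (SE 0.42, 95% interval 3.79 to 5.87, limma adjusted p = 0.0106 over all probe sets). ADM was singled out for this difference in earlier work on these data, so its value is a description. Without L363 the difference was 4.66 and the limma adjusted p 0.0578, and with L363 and U266 averaged as 1 line they were 4.59 and 0.0421.

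Over the whole set, 1 of 33 genes rose in PCM lines (ADM) and 0 fell by limma at an adjusted p under 0.05, where 2.79% of all 22215 probe sets were called, 1.12% higher and 1.67% lower. ADM was picked for its rise in these data, so its call was set beforehand, and 0 of the other 32 genes were called. It is also among the genes counted as higher in the rest of this paragraph. At an unadjusted p under 0.05, 9 genes passed, 2 higher and 7 lower, against 19.7% of all probe sets. The 3 PCM lines lay beyond the 3 B-cell lines for 11 of 33 genes (33.3%), 2 above and 9 below. The shares over all probe sets were 28.2% beyond, 16.9% above and 11.3% below. The median difference of the set was -0.24, and that of all probe sets 0.05. In the authors' deposited table, 7 of the 33 genes passed an adjusted p under 0.05, against 9.85% of all probe sets: ADM and NDRG1 higher, and HK1, HK2, PFKFB3, HIF1A and BNIP3 lower. A limma fit that took each of the 9 arrays as a replicate called the same 7.

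**Figure D1:**
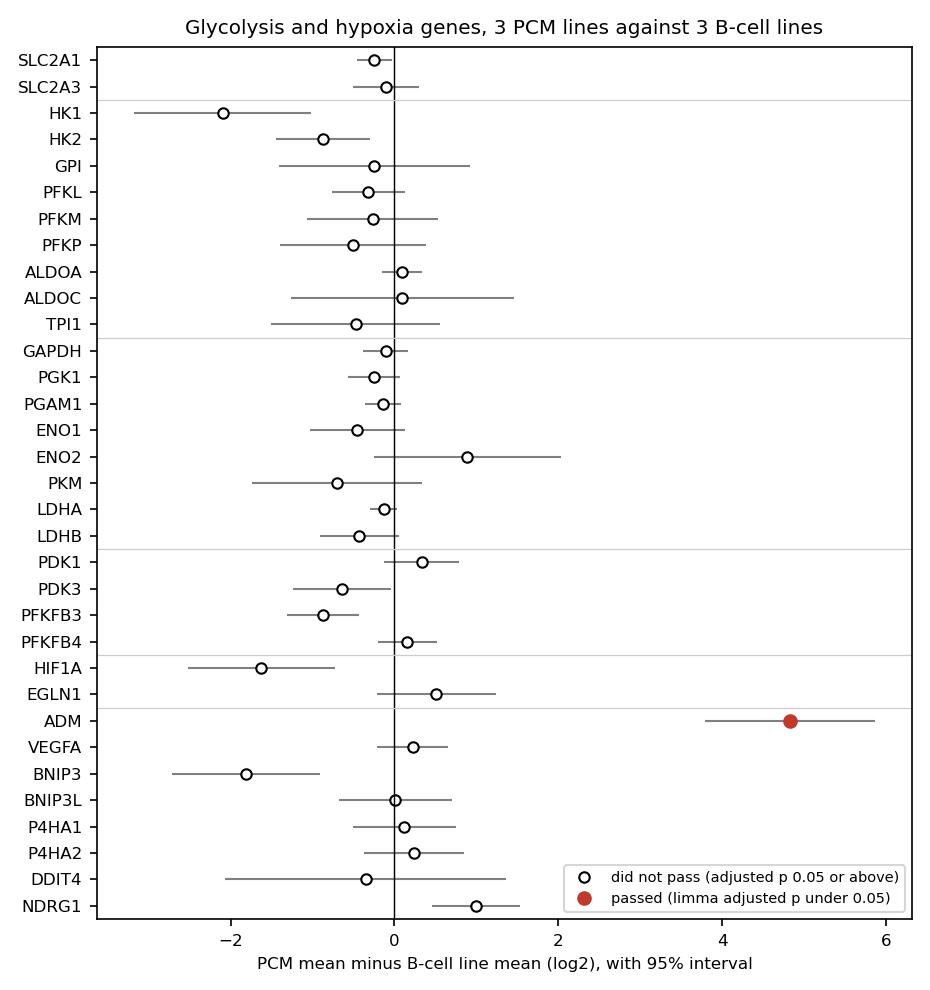
Difference between the mean of 3 PCM lines and the mean of 3 B-cell lines for the 33 genes, in log2 units, with 95% intervals and genes grouped by role. ADM lies at 4.83, apart from the other 32 genes, which lie between -2.10 (HK1) and 0.99 (NDRG1).

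Among the 8 hypoxia targets outside metabolism, ADM was the gene that passed the test, and the median difference was 0.17. NDRG1, a stress-induced protein of growth control, had values of 7.72 in L363, 7.39 in U266 and 8.20 in LP1, against 6.72 in Namalwa, 6.71 in SU-DHL4 and 6.90 in SU-DHL6. The PCM lines did not overlap the B-cell lines. The difference was 0.99 (SE 0.22, 95% interval 0.46 to 1.53, limma adjusted p = 0.0833), which missed the threshold.

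BNIP3, a mitochondrial protein that promotes mitophagy and is a widely used hypoxia target, lay on the other side. Its values were 6.83 in L363, 7.70 in U266 and 6.81 in LP1, against 9.49 in Namalwa, 8.89 in SU-DHL4 and 8.41 in SU-DHL6. The lines did not overlap, but the lower of the 2 SU-DHL6 arrays, at 7.61, was below U266. The difference was -1.81 (SE 0.36, 95% interval -2.71 to -0.91, adjusted p = 0.0707 by limma), and its other probe set gave -1.21 (adjusted p = 0.106 by limma). With the first SU-DHL6 array left out, the BNIP3 difference was -2.08 with a limma adjusted p of 0.0331. With the second left out, the array that stood apart in its RNA controls, it was -1.55 with a limma adjusted p of 0.211.

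At the probe sets chosen by the rule, the other 5 targets had 95% intervals of the PCM difference that held 0. VEGFA, the angiogenic growth factor, had values of 9.05, 9.07 and 8.88 in L363, U266 and LP1, against 8.57, 8.61 and 9.14 in Namalwa, SU-DHL4 and SU-DHL6. The groups overlapped through the second SU-DHL6 array, which read 9.47, while the first read 8.82, below all 3 PCM lines. The VEGFA difference was 0.23 (SE 0.17, 95% interval -0.21 to 0.66, limma adjusted p = 0.502), and another of its probe sets gave 0.17 (95% interval -0.57 to 0.90). At the other 2 VEGFA probe sets all 3 PCM arrays lay above all 6 B-cell arrays. They gave 0.41 (95% interval 0.19 to 0.62, limma adjusted p = 0.0813) and 0.35 (95% interval 0.14 to 0.56, limma adjusted p = 0.103), which missed the threshold. In the authors' deposited table their adjusted p-values were 0.0475 and 0.0266. BNIP3L, the paralogue of BNIP3 in mitophagy, had a difference of 0.01 (95% interval -0.68 to 0.71), and its other probe set gave -0.34. P4HA1 and P4HA2, the catalytic subunits of collagen prolyl hydroxylase, had differences of 0.12 (95% interval -0.50 to 0.75) and 0.24 (95% interval -0.37 to 0.84). DDIT4, a stress-induced inhibitor of mTORC1, had a difference of -0.35 with a wide interval (-2.06 to 1.36): its PCM values ran between 6.98 in L363 and 9.07 in LP1, and its B-cell line means between 7.40 in Namalwa and 9.04 in SU-DHL6.

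**Figure D2:**
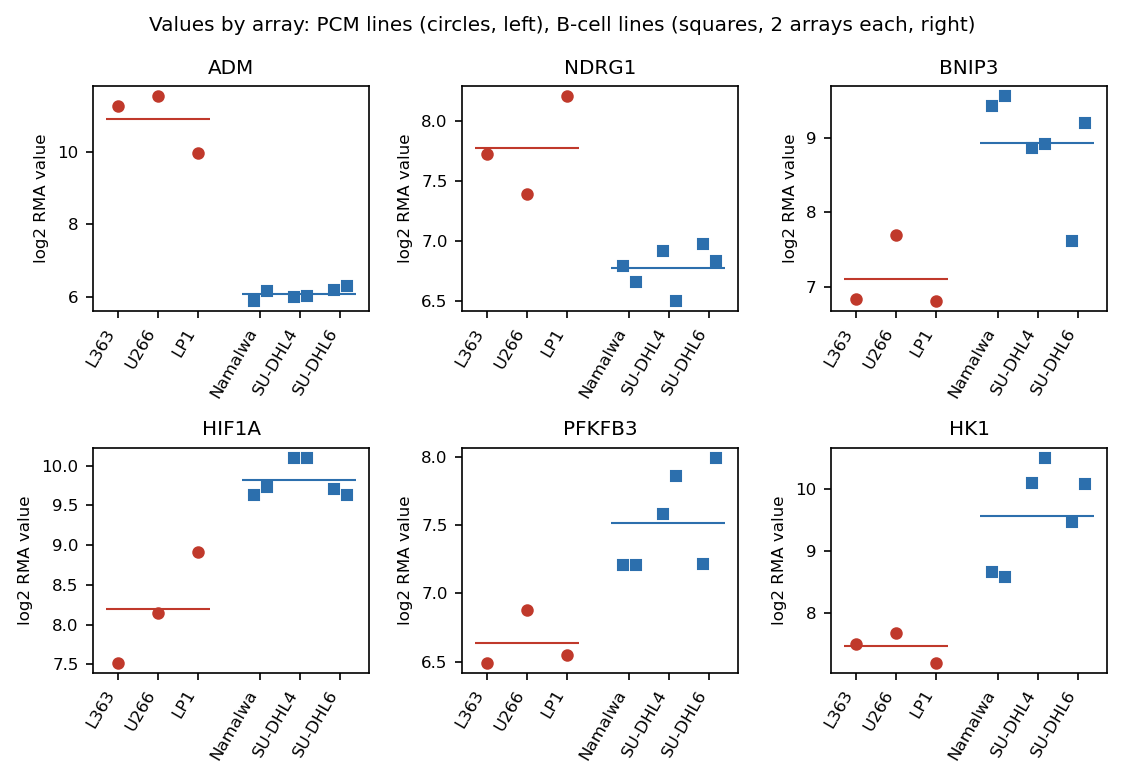
Log2 RMA values of ADM, NDRG1, BNIP3, HIF1A, PFKFB3 and HK1 on each of the 9 arrays, with the 3 PCM lines (circles) left of the 3 B-cell lines (squares, 2 arrays each) and a horizontal line at the mean of each class. ADM reads 9.95 to 11.53 in PCM lines and at most 6.29 on B-cell arrays, while the line values of BNIP3, HIF1A and HK1 lie lower in PCM lines and the 2 SU-DHL6 squares lie apart for BNIP3.

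HIF1A, the oxygen-controlled subunit of HIF, lay lower in PCM lines, not higher as ADM did. It read 7.52 in L363, 8.15 in U266 and 8.91 in LP1, against 9.68 in Namalwa, 10.10 in SU-DHL4 and 9.67 in SU-DHL6. All PCM lines lay below all B-cell arrays. The difference was -1.62 (SE 0.36, 95% interval -2.52 to -0.72, adjusted p = 0.0909 by limma). Without LP1, the highest PCM line, it was -1.98 with a limma adjusted p of 0.0290. With any other line left out, the limma adjusted p ran between 0.166 (without SU-DHL6) and 0.249 (without SU-DHL4). Within the PCM lines LP1 had the highest HIF1A value and the lowest ADM value, with 1 array a line and no test. A link between HIF1A and ADM was not tested, and HIF1A protein was not measured. EGLN1, the prolyl hydroxylase, had values of 7.67, 8.07 and 7.02 in L363, U266 and LP1, against 6.79, 7.32 and 7.11 in Namalwa, SU-DHL4 and SU-DHL6, and its difference of 0.51 (SE 0.29) had a limma adjusted p of 0.381.

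Of the 2 measured glucose transporters, neither was called. SLC2A1, the common glucose transporter of proliferating cells, had a PCM mean of 8.29 ± 0.05 and a B-cell mean of 8.53 ± 0.11 (SD, n = 3 lines each), a difference of -0.25 (limma adjusted p = 0.202). Its other probe set gave 0.05, so the direction depended on the probe set. SLC2A3, a high-affinity transporter, had a difference of -0.11 (limma adjusted p = 0.734), and its other 2 probe sets gave 0.10 and -0.23.

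The 9 enzymes from hexokinase to triosephosphate isomerase gave 0 calls by limma, with 2 past an unadjusted p of 0.05, and a median difference of -0.32. Hexokinases, which trap glucose in the cell by phosphorylating it, were the lowest of them in PCM lines. HK1 had values of 7.51 in L363, 7.68 in U266 and 7.20 in LP1, against 8.62 in Namalwa, 10.29 in SU-DHL4 and 9.77 in SU-DHL6. The groups did not overlap, and the B-cell lines spread more widely than the PCM lines. The HK1 difference was -2.10 (SE 0.44, 95% interval -3.18 to -1.02, limma adjusted p = 0.0756). Without Namalwa it was -2.57 with a limma adjusted p of 0.0256. With any other line left out, the limma adjusted p ran between 0.115 (without LP1) and 0.226 (without L363). HK2, the hexokinase of many tumours, read 7.66, 8.43 and 8.07 in L363, U266 and LP1, against 9.18, 8.88 and 8.72 in Namalwa, SU-DHL4 and SU-DHL6. These groups did not overlap either, with a difference of -0.87 (SE 0.23, limma adjusted p = 0.124), while its other probe set gave -0.19. The remaining 7 differed by -0.50 (PFKP) to 0.10 (ALDOC). The phosphofructokinase subunits PFKL, PFKM and PFKP, which form the committed step, stood at -0.32, -0.27 and -0.50. The isomerases GPI and TPI1 stood at -0.24 and -0.47, and the aldolases ALDOA and ALDOC at 0.09 and 0.10, with adjusted p-values of at least 0.373 for all 7 in limma.

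The 8 enzymes from GAPDH to lactate dehydrogenase also gave 0 calls by limma, none passed an unadjusted p of 0.05, and the median difference was -0.20. LDHA, which makes lactate and is a classical HIF target, varied little: its PCM mean was 12.66 ± 0.05 and its B-cell mean 12.79 ± 0.01 (SD, n = 3 lines each). The PCM lines lay below the B-cell lines by 0.13 (SE 0.07, limma adjusted p = 0.335). GAPDH, PGK1 and PGAM1 had differences of -0.11, -0.25 and -0.14, and 1 of the other 3 PGK1 probe sets gave 0.13. LDHB, the other lactate dehydrogenase subunit, stood at -0.43 (limma adjusted p = 0.293) and ENO1, the general enolase, at -0.45 (limma adjusted p = 0.340). The other 2 ENO1 probe sets gave 0.17 and 0.05, so its direction depended on the probe set. ENO2, the neuronal enolase that hypoxia can induce elsewhere, had values of 8.38 in L363, 7.91 in U266 and 6.73 in LP1, against 6.32 in Namalwa, 7.01 in SU-DHL4 and 7.02 in SU-DHL6. LP1 fell among the B-cell lines, and the difference of 0.89 (SE 0.46) had a limma adjusted p of 0.342. PKM, the pyruvate kinase, stood at -0.70 (SE 0.42, limma adjusted p = 0.394), with LP1 lowest.

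Of the 4 regulators, PFKFB3 had the largest PCM difference. It makes the allosteric activator of phosphofructokinase. It read 6.49 in L363, 6.88 in U266 and 6.55 in LP1, against 7.21 in Namalwa, 7.72 in SU-DHL4 and 7.61 in SU-DHL6. The groups did not overlap, and the difference was -0.87 (SE 0.18, 95% interval -1.31 to -0.44, adjusted p = 0.0714 by limma). The related PFKFB4 stood at 0.16 (limma adjusted p = 0.562). PDK1 and PDK3, kinases that switch off pyruvate dehydrogenase and so keep pyruvate from the mitochondria, had differences of 0.33 (limma adjusted p = 0.366) and -0.64 (limma adjusted p = 0.229).

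Beyond the set, 96 measured genes of 7 related lists gave 2 that rose and 2 that fell in PCM lines by limma, 4.17% of them called against 2.79% of all probe sets. The pair that rose were 2 of 37 other hypoxia targets: P4HB (1.18, SE 0.19, limma adjusted p = 0.0426) and ERO1A (0.50, SE 0.09, limma adjusted p = 0.0493). P4HB is a protein disulfide isomerase that is also a subunit of collagen prolyl hydroxylase, and ERO1A reoxidises such isomerases, so both serve oxidative protein folding in the endoplasmic reticulum. P4HB read 12.07, 11.86 and 12.01 in L363, U266 and LP1, against 10.88, 10.41 and 11.09 in Namalwa, SU-DHL4 and SU-DHL6. ERO1A read 7.87, 7.93 and 7.74 in L363, U266 and LP1, against 7.28, 7.42 and 7.35 in Namalwa, SU-DHL4 and SU-DHL6. Neither gene's groups overlapped. The pair that fell were 2 of 6 genes of the pentose phosphate pathway, RPIA (-0.90, SE 0.12, limma adjusted p = 0.0310) and RPE (-0.85, SE 0.13, limma adjusted p = 0.0401), the isomerase and epimerase that link its oxidative arm to its sugar-exchanging arm. In a fit that counted L363 and U266 as 1 line, 0 of these 4 genes were called, and without the second SU-DHL6 array the hypoxia pair missed the threshold (adjusted p = 0.0511 for P4HB and 0.0737 for ERO1A).

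The other 5 lists gave 0 calls by limma. At an unadjusted p under 0.05, which 19.7% of all probe sets passed, there were 3 of 11 among other glycolytic isoenzymes, 3 of 9 among other glucose, lactate and proton transporters, 3 of 11 in pyruvate entry, 3 of 16 among HIF subunits and their controllers, and 1 of 6 among adrenomedullin receptors and related peptides. The receptor CALCRL, which binds adrenomedullin together with a RAMP protein, differed by 0.16 (SE 0.13) and its partners RAMP1 and RAMP2 by 0.30 (SE 0.11) and 0.12 (SE 0.08). These 3 genes fall outside the naming rule and were picked after their values were seen.

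Within the PCM lines, LP1 differed from L363 and U266 at several enzymes. With 1 array per line there is no test. LP1 was more than 2-fold below the mean of L363 and U266 for 5 of 33 genes, where 1.99% of all probe sets were: GPI by -1.52, TPI1 by -1.45, ADM by -1.44, ENO2 by -1.42 and PKM by -1.36. It was more than 2-fold above for 3 genes, where 3.60% of all probe sets were: DDIT4 by 1.40, PFKP by 1.17 and HIF1A by 1.08. GPI read 10.39 in LP1, against 11.57 in L363 and 12.27 in U266. TPI1 read 11.00 in LP1, against 12.35 and 12.55 in L363 and U266. PKM read 10.87 in LP1, against 11.92 and 12.55 in L363 and U266. For all 3 enzymes LP1 lay below every other array, and GPI, TPI1 and PKM serve steps at the start, middle and end of the pathway. LP1 also had the highest 3′ minus 5′ value at the GAPDH controls, 0.07, of the 8 arrays other than the second SU-DHL6 array. The part of RNA quality in these differences was not tested. L363 against U266 gave 1 gene past 2-fold, DDIT4 at -1.37, and 0 in the other direction, where 0.954% of all probe sets were lower and 0.284% higher.

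**Figure D3:**
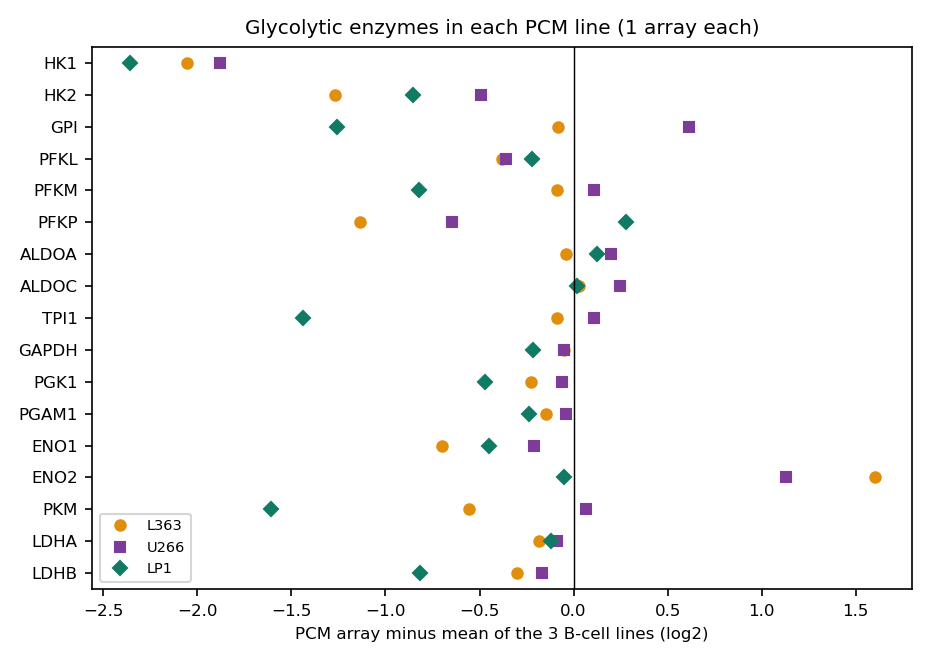
Difference of each PCM array from the mean of the 3 B-cell lines for the glycolytic enzymes, in log2 units, with 1 point per PCM line. Among the 3 PCM lines LP1 lies lowest at GPI (-1.26), TPI1 (-1.44) and PKM (-1.61), and also at HK1 (-2.36) and several other enzymes. It lies highest at PFKL (-0.22) and PFKP (0.28). L363 and U266 coincide at GAPDH, where both read 13.90.

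The 2 SU-DHL6 arrays differed at hypoxia genes far more than the duplicates of the other B-cell lines. The second array was more than 2-fold above the first for 6 of 33 genes (18.2%) and more than 2-fold below for 0, where 1.14% of all probe sets were above and 0.761% below. The 6 genes were BNIP3L (1.76), ENO2 (1.76), BNIP3 (1.58), ALDOC (1.42), DDIT4 (1.37) and P4HA1 (1.35). In the SU-DHL4 and Namalwa duplicates 0 of the 33 genes passed 2-fold in either direction, where 0.234% and 0.0270% of all probe sets were higher in the second array and 0.0675% and 0.302% lower. The median difference of the 33 genes was 0.30 in SU-DHL6, 0.00 in SU-DHL4 and 0.03 in Namalwa. With 1 array on each side these differences have no test.

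BNIP3L read 9.39 on the second and 7.62 on the first SU-DHL6 array, against 8.14 to 9.10 on the other 4 B-cell arrays. The other probe set of BNIP3L read 8.65 and 5.98 on these SU-DHL6 arrays. The 2 arrays lay on either side of the other 4. BNIP3 read 9.20 on the second and 7.61 on the first SU-DHL6 array, against 8.86 to 9.55 on the other 4. For BNIP3, the first SU-DHL6 array was the low one and the second lay among the other B-cell arrays. ENO2 read 7.90 on the second and 6.13 on the first SU-DHL6 array, against 6.27 to 7.31 on the other 4. P4HA1 read 9.79 and 8.43 on the second and first SU-DHL6 arrays, against 8.15 to 8.45 on the other 4. ALDOC read 10.52 and 9.10 on the second and first SU-DHL6 arrays, against 7.68 to 9.42 on the other 4. For ENO2, P4HA1 and ALDOC the second SU-DHL6 array was the highest of the 6 B-cell arrays, and so it was for DDIT4, at 9.72 against 8.35 on the first and 7.38 to 9.10 on the other 4.

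ADM and NDRG1 differed little, by 0.12 and -0.14 between the SU-DHL6 arrays. The other 2 targets lay between, with P4HA2 at 0.55 and VEGFA at 0.65. The 4 VEGFA probe sets did not move together, since another gave 1.57 and another -0.41. The later glycolytic enzymes differed less, with a median of 0.09 over the 8 enzymes from GAPDH to lactate dehydrogenase. LDHA differed by 0.00 and ENO1 by 0.00, although another ENO1 probe set differed by -1.05. Among other hypoxia targets, 4 of 37 (10.8%) were more than 2-fold above in the second array: ZNF395 (2.68), MXI1 (1.81), KDM3A (1.74) and AK4 (1.68). These 4 genes fall outside the naming rule and are given because the count turns on them. The second array was also the one with the 3′ to 5′ shift and the raised ribosomal RNA control given above, and the part of RNA quality in these differences was not tested.

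**Figure D4:**
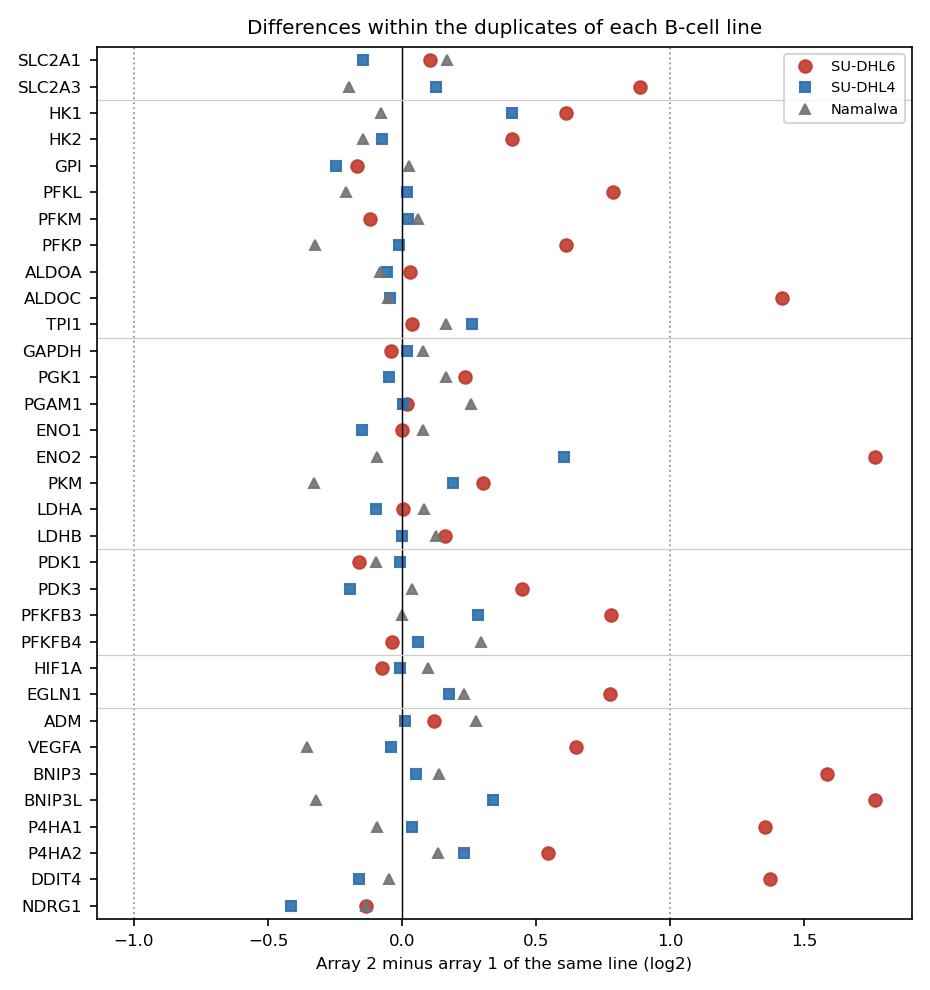
Second minus first array of each B-cell line for the 33 genes, in log2 units. SU-DHL6 points pass 1 (2-fold) at BNIP3L, ENO2, BNIP3, ALDOC, DDIT4 and P4HA1, up to 1.76, while no SU-DHL4 or Namalwa point does, and ADM lies at 0.12 in SU-DHL6.

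Between the B-cell lines, the set differed at single enzymes. SU-DHL6 against SU-DHL4 gave 4 of 33 genes (12.1%), where 8.52% of all probe sets were called by limma, 3.75% higher and 4.77% lower. ALDOC rose in SU-DHL6, with line means of 9.81 in SU-DHL6 and 7.71 in SU-DHL4, a difference of 2.10 (SE 0.43, limma adjusted p = 0.0432). Both SU-DHL6 arrays lay above both SU-DHL4 arrays, by 1.40 with the first SU-DHL6 array alone and by 2.81 with the second alone. PFKM, the muscle-type phosphofructokinase subunit, fell in SU-DHL6, with values of 10.27 and 10.39 on its arrays, against 11.16 and 11.18 in SU-DHL4. The 2 lines did not overlap, and the difference was -0.84 (SE 0.09, limma adjusted p = 0.00665). PDK1 fell by 0.50 (SE 0.10, limma adjusted p = 0.0376) and HIF1A by 0.43 (SE 0.09, limma adjusted p = 0.0435) in SU-DHL6.

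These counts hung on the SU-DHL6 array used: without its second array limma called 5 genes (ALDOC higher, and PFKM, PDK3, BNIP3 and DDIT4 lower) and 7.94% of all probe sets, and without its first array 9 genes, 7 of them higher, and 11.5% of all probe sets. Without either SU-DHL4 array it called 0 genes (1.44% and 2.43% of all probe sets), and without either Namalwa array 1 gene, PFKM (3.84% of all probe sets each time). The residual spread changes with the arrays kept, so a count is to be read against the share of all probe sets in the same fit. ALDOC and PFKM were called with either array. BNIP3 and DDIT4 show the dependence: with the first SU-DHL6 array both were lower than in SU-DHL4, and with the second DDIT4 was higher.

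Namalwa against the mean of the SU-DHL lines gave 2 of 33 genes (6.06%), where 9.01% of all probe sets were called by limma, 4.70% higher and 4.31% lower. ENO1 rose in Namalwa, with 13.08 and 13.16 on the Namalwa arrays, against 12.42 and 12.27 in SU-DHL4 and 12.60 and 12.60 in SU-DHL6. The Namalwa arrays lay above the other 4, with a difference of 0.65 (SE 0.08, limma adjusted p = 0.0103), while the other 2 ENO1 probe sets gave 0.18 and 0.96 and were not called. HK1 fell in Namalwa, with 8.66 and 8.58 on its arrays, against 10.09 and 10.50 in SU-DHL4 and 9.46 and 10.07 in SU-DHL6. The difference was -1.41 (SE 0.20, limma adjusted p = 0.0151). DDIT4 was lower in Namalwa by a similar amount, -1.63 (SE 0.36), with an adjusted p of 0.0534 in limma that missed the threshold. It was called after either other normalization, above the median level, with another moderation and with the Namalwa numbers crossed. Leaving out either SU-DHL6 array also gave a call for DDIT4. With the replicate block, or without either Namalwa or either SU-DHL4 array, DDIT4 was not called. Without the second SU-DHL6 array 8 genes were called (11.0% of all probe sets) and without the first 9 (11.7%). Leaving out either Namalwa array gave 0 genes (0.842% and 1.03% of all probe sets), and either SU-DHL4 array 1, ENO1 (3.42% and 3.45%). PFKL had a called difference at its other probe set, 0.49 in SU-DHL6 against SU-DHL4 (limma adjusted p = 0.0337) and -0.45 in Namalwa against the SU-DHL lines (limma adjusted p = 0.0253), but not at the probe set chosen by the rule.

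**Figure D5:**
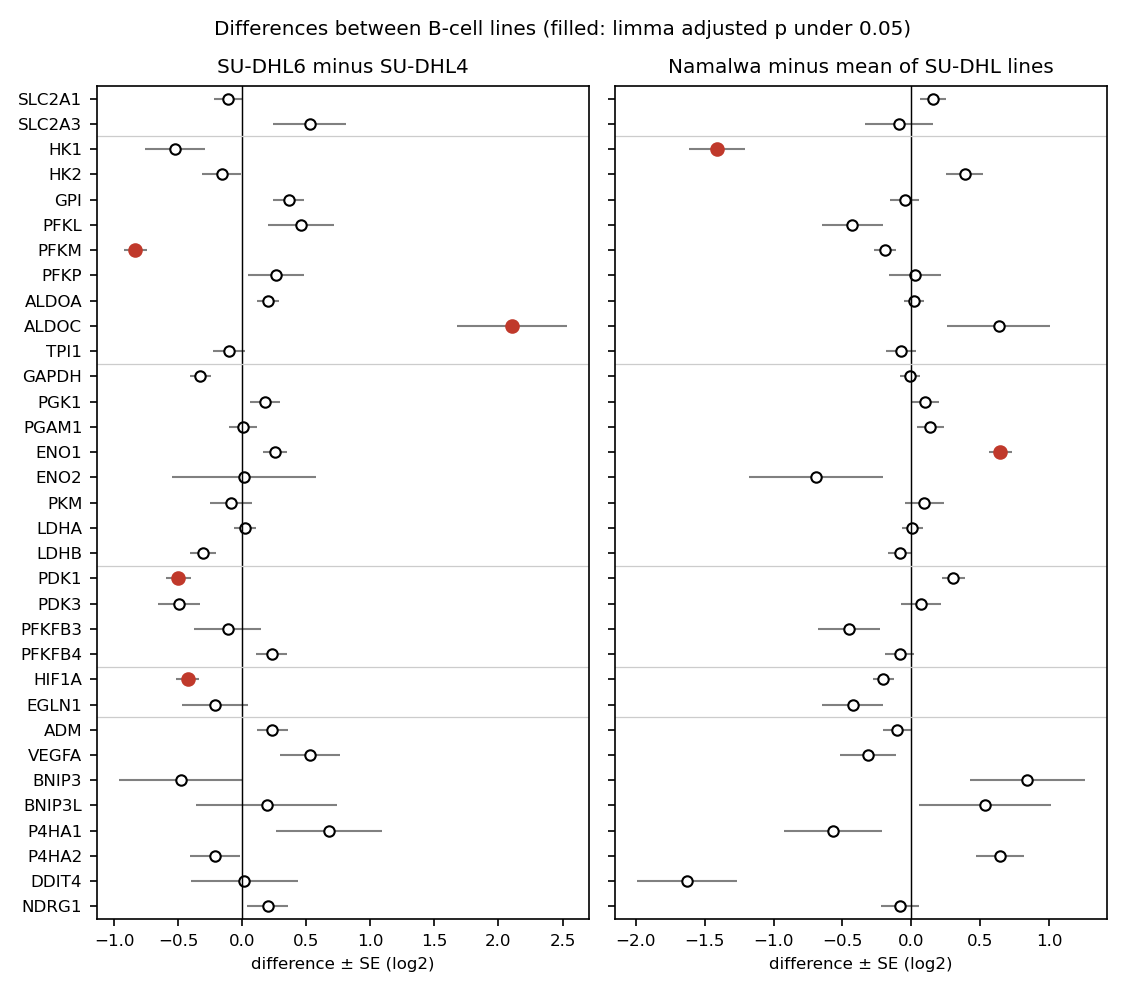
Differences with SE for the 33 genes in SU-DHL6 against SU-DHL4 and in Namalwa against the mean of the SU-DHL lines, in log2 units, with filled points for a limma adjusted p under 0.05. ALDOC lies highest between the SU-DHL lines at 2.10, and HK1 is the filled point at -1.41 and ENO1 that at 0.65 in the Namalwa comparison.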

How the data were processed

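Total RNA of 6 cell lines was measured on 9 arrays, grouped by the cell line and class in the labels. The authors normalized the arrays by RMA, per the submitters' processing notes, and deposited log2 values. Its version, and whether the earlier Namalwa arrays were normalized with the rest, is not given in the sources used here. Per the file headers, the authors deposited a second table with a p-value and an adjusted p-value per probe set from a moderated t-test. That table's log2 differences are B-cell minus PCM, and their sign was turned. No detection call was used, so dim probe sets cannot be called absent, and the number of arrays limits the precision.

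After 68 control probe sets were dropped, 22215 remained, of which 19065 had 1 symbol in the platform annotation, 1043 several and 2107 none. R 4.3.3 with limma 3.58.1 (lmFit, eBayes) was run on all of them, two-sided, with Benjamini-Hochberg adjustment and calls at an adjusted p under 0.05. In the PCM comparison each B-cell line entered as the mean of its 2 arrays, giving 3 lines per class and 4 residual degrees of freedom. An exact permutation test of 3 against 3 cannot go below 0.1 and was not used. B-cell lines were compared on their 6 arrays, with 3 residual degrees of freedom. The fits were tested on simulated data. All 33 genes were named, with other probe sets where they disagreed in direction or call with a value given here, and up to 3 called genes per related list. The genes, lists and rules were chosen with earlier results of these data known.

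The labels do not say that replicate numbers mark a shared day or culture. Second minus first arrays correlated over probe sets by 0.20 for SU-DHL6 with SU-DHL4, -0.15 for SU-DHL6 with Namalwa and -0.44 for SU-DHL4 with Namalwa. Equal numbers thus did not go together, but Namalwa and SU-DHL4 arrays of opposite number did. The hybridisation control BioC read 8.26 on the first Namalwa and 8.33 on the second SU-DHL4 array. It read 7.44 on the second Namalwa and 7.49 on the first SU-DHL4 array. Whether such arrays share a batch was not tested, and the main B-cell fits hold no term for it. Alternatives changed the unit of replication (arrays, a random block per line, L363 and U266 as 1 line), the arrays used, the normalization (quantile, or the 75th percentile), the filter on level, the moderation, the threshold (0.01), the probe set and the replicate block, or left out each array or line. Promoter windows came from RefSeq (GRCh38.p14), where SLC2A3, VEGFA, BNIP3L and NDRG1 had no entry.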

Additional observations from a re-analysis of the deposited data

Results flagged for a closer look

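In 5 of the 33 genes the highest or lowest of the 6 B-cell arrays lay apart from the rest by Dixon's test at the 95% level, which chance alone gives in about 1 in 20 groups. The 6 arrays are pairs of 3 lines, so they are not 6 independent samples and the 1 in 20 need not hold for them. The share of all probe sets that lie apart in this way was not counted. The 5 genes are therefore listed for their values only, not as a result about the set. The second SU-DHL6 array was the high one for SLC2A3 (7.06), PFKL (10.25) and P4HA1 (9.79). The first SU-DHL6 array was the low one for BNIP3 (7.61). The second Namalwa array was the high one for PGAM1 (12.59). The part of the RNA quality values of the second SU-DHL6 array in these was not tested.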

How the results depend on the processing

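The ADM difference kept its direction in 23 of 23 settings, with values of 4.52 to 5.31 and adjusted p-values of 5.9e-05 to 0.0578, and missed the threshold in 1, without L363. Leaving out 1 line or array gave 4.52 (without U266) to 5.31 (without LP1).

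Brackets give the share of all probe sets called in the same fit. Of the 33 genes, the PCM comparison called 1 (2.79%), against 0 at an adjusted p under 0.01. It called 7 with each array as a replicate (9.85%), 5 with line as a random block (7.05%) and 2 with the second arrays alone (1.90%). With only probe sets above the median level it called 3 of 31 genes (6.05% of 11107). The authors' deposited table gave 7 (9.85%). With 1 line or array left out 0 to 2 were called (0.590% to 4.04%). Over all probe sets the 619 calls became 75 at 0.01, 2189 with each array as a replicate and 1567 with the random block. They became 184 with L363 and U266 averaged and 2188 in the authors' deposited table. With 1 line or array left out they were 131 (without L363) to 897 (without LP1). Leaving out probe sets marked as matching several transcripts kept 11813 probe sets and 17 of the 33 genes. Of these probe sets 271 were called, 2.29% against 2.79% in the main fit. In that setting SLC2A1 turned to 0.0458, since it moves to its other probe set.

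SU-DHL6 against SU-DHL4 called 4 (8.52% of all probe sets), against 1 at 0.01 and 2 after centring on the 75th percentile (9.57%). With 1 array left out it called 0 to 9 (1.44% to 11.5%). Namalwa against the SU-DHL lines called 2 (9.01%), against 0 at 0.01 and 0 to 9 with 1 array left out (0.842% to 11.7%). With the replicate number as a replicate block, these comparisons called 1 (PFKM, 6.12%) and 2 (6.62%). With the Namalwa numbers crossed, the order in which Namalwa and SU-DHL4 arrays went together, they called 4 (10.4%) and 3 (10.9%). That order was chosen after seeing the data. Of the related genes, P4HB had adjusted p-values of 0.00681 to 0.157 over the settings, ERO1A 0.0120 to 0.154, RPIA 0.00190 to 0.115 and RPE 0.0108 to 0.140, with no change of direction.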
